A study of Mus musculus with 4 samples.

Results

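The genes described are the 6 mitochondrially encoded subunits of respiratory complexes III, IV and V: mt-Cytb of complex III, mt-Co1, mt-Co2 and mt-Co3 of complex IV, and mt-Atp6 and mt-Atp8 of complex V, the ATP synthase. They were chosen by name, and all 6 were found among the 32285 genes of the feature lists and passed the filter on low counts in the sums of all cells. The other 7 mitochondrially encoded protein genes, mt-Nd1 to mt-Nd6 with mt-Nd4l, encode subunits of complex I and serve as the comparison. The cells came from C57BL/6J mouse embryos at embryonic stage E11.5, from the aorta-gonad-mesonephros region (AGM), where the first definitive blood stem cells arise. CD31+ cells were sorted by TMRM, a dye that accumulates in mitochondria with a high membrane potential, into a dim gate, MMPlow, and a bright gate, MMPhigh, with 2 droplet libraries each. The 2 gates share strain, stage, tissue and CD31 gate, no agent or genotype separates them, and nothing in the labels says which embryos or sorts gave which library. The question for these genes is how their RNA differs between the gates, as a share of the cell's RNA counts and in proportion to the other mitochondrial mRNAs.

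Mitochondrial DNA is transcribed as long precursors that are cut into separate mRNAs, so the levels of its mRNAs depend on processing, polyadenylation and decay as well as on transcription. mt-Cytb carries the b-type haems of complex III, the complex that passes electrons from quinol to cytochrome c. mt-Co1, mt-Co2 and mt-Co3 form the core of cytochrome c oxidase, where oxygen is reduced. mt-Atp6 forms part of the proton channel of the ATP synthase and mt-Atp8 a small part of its stator, and both are read from a shared RNA. All other subunits of these complexes are encoded in the nucleus.

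All 6 genes lie on the plus strand of the mitochondrial chromosome (mm10, coordinates from the GENCODE annotation), each as 1 exon without introns. mt-Co1 lies at chrM:5328-6872, mt-Co2 at chrM:7013-7696, mt-Atp8 at chrM:7766-7969, mt-Atp6 at chrM:7927-8607, mt-Co3 at chrM:8607-9390 and mt-Cytb at chrM:14145-15288. The last bases of each gene are shown because 3′ libraries count RNA near its poly(A) tail. Capitals mark the bases of the stop codon that the DNA holds. In mt-Cytb and mt-Co3 it holds only the T, and in mitochondria such a codon is completed by the poly(A) tail.
mt-Cytb: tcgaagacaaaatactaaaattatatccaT
mt-Co1: gaggaaccaacctatgtaaaagtaaaaTAA
mt-Co2: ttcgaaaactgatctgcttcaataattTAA
mt-Co3: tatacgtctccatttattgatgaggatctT
mt-Atp6: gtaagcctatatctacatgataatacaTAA
mt-Atp8: tatttgcctcattcattaccccaacaaTAA

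The end of mt-Atp8 lies inside mt-Atp6. The shared stretch, chrM:7927-7969 on the plus strand, has 43 bases and is shown with the start codon of mt-Atp6 and the stop codon of mt-Atp8 in capitals.
mt-Atp8 and mt-Atp6 overlap: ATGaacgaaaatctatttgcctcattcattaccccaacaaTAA
It makes up 21.1% of mt-Atp8 and 6.31% of mt-Atp6. How reads in the shared bases were assigned is not given in the sources used here, so the level of mt-Atp8 is uncertain. mt-Atp6 and mt-Co3 share 1 base. Nuclear pseudogenes hold near-identical copies. Gm10925 on chromosome 1 matches 678 bases of mt-Atp6 at 100% identity, Gm28661 matches 681 bases of mt-Co2 at 100%, and Gm28437 matches 783 bases of mt-Co3 at 100%. The match to mt-Co1 of highest identity was Gm29216, at 99.8% over 483 bases, while Gm13340 matches all 1545 bases at 97.6%, and mt-Cytb was matched by Gm11410, at 92.9% over 1142 bases. No separate match to mt-Atp8 was kept, but short matches were left out and only annotated transcripts were searched. The match of Gm10925 starts at base 1 of mt-Atp6, so it includes the 43 bases shared with mt-Atp8. None of these copies is in the feature lists, and how reads that match both places were counted is not given in the sources used here.

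After filtering, 43102 of 101870 barcodes were retained, 16698 and 18583 in MMPlow 1 and 2 against 4403 and 3418 in MMPhigh 1 and 2. The median unique molecular identifiers (UMIs) per retained cell were 3145, 3651 and 3685 in the first 3 of these libraries and 23668.5 in MMPhigh 2, which stands apart in depth. Shares are therefore given with every cell thinned to 2000 UMIs. Pairs of libraries shared between 14 and 369 barcode sequences. Pecam1, the gene of CD31, was at 275 and 261 CPM (a gene's UMIs scaled by the total of its library) in MMPlow 1 and 2 and at 24.9 and 22.0 CPM in MMPhigh 1 and 2, so the mRNA behind the sort marker was low in MMPhigh. Cdh5, which defines endothelium, was at 259 and 233 CPM and at 4.69 and 3.17 CPM. The gates thus held different cells: endothelial-like cells were 43.3% and 44.5% of MMPlow 1 and 2 and 0.363% and 0.380% of MMPhigh 1 and 2. In sums over cells, a different mix of cells and a different RNA content per cell cannot be told apart, and the genes are also described within cell classes named from markers. Nothing in the labels says that the 2 libraries of a gate came from separate embryos, so p-values measure the spread between these libraries, which may be technical. With 2 libraries against 2, an exact permutation test cannot give a p below 0.333.

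Inside mitochondrial mRNA, the 6 genes took a larger share in both MMPhigh libraries than in both MMPlow libraries. They made up 74.6% and 75.8% of the UMIs of the 13 mitochondrial protein genes in MMPlow 1 and 2 against 80.9% and 78.9% in MMPhigh 1 and 2. The gates did not overlap. MMPlow averaged 75.2% ± 0.834 (SD, n = 2) against 79.9% ± 1.43 in MMPhigh (SD, n = 2), which lie 4.65 percentage points apart, with a two-sided exact permutation p of 0.333, the smallest this design allows. Because the shares of the 13 genes add up to the whole, complex I genes were lower by the same amount, with means of 24.8% in MMPlow and 20.1% in MMPhigh. The UMIs of the 6 genes for each complex I UMI were 2.94 and 3.13 in MMPlow against 4.23 and 3.73 in MMPhigh.

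The difference was carried by mt-Atp6, mt-Co2 and mt-Co3 and not by the other members. mt-Atp6 was 17.3% and 17.2% of mitochondrial UMIs in MMPlow 1 and 2 against 21.9% and 20.4% in MMPhigh 1 and 2. mt-Co2 was 14.6% and 14.1% in MMPlow against 16.8% and 15.1% in MMPhigh. mt-Co3 was 17.2% and 18.6% in MMPlow against 19.9% and 19.4% in MMPhigh. For these 3 genes both MMPhigh values lay above both MMPlow values, by 3.93, 1.63 and 1.72 percentage points on average. The mt-Co2 difference was 0.767 points without MMPhigh 1 and 2.49 without MMPhigh 2, and that of mt-Co3 was 1.02 without MMPlow 1. They are neighbours on the chromosome, with mt-Atp8 between mt-Co2 and mt-Atp6.

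mt-Cytb and mt-Atp8 lay lower in MMPhigh without overlap. mt-Cytb was 12.4% and 13.01% of mitochondrial UMIs in MMPlow against 11.2% and 10.7% in MMPhigh. mt-Atp8, the rarest of the 6, was 0.507% and 0.322% in MMPlow against 0.193% and 0.307% in MMPhigh, so that MMPlow 2 and MMPhigh 2 were close. Its mean difference of -0.165 points was -0.0727 without MMPlow 1, -0.108 without MMPhigh 1 and -0.257 without MMPlow 2. mt-Co1 was 12.6% in both MMPlow libraries and 10.9% and 12.96% in MMPhigh, and its gates overlapped. Of all 13 genes, 23.1% lay above without overlap, which are these 3 members, and 53.8% lay below, among them mt-Cytb, mt-Atp8 and 5 complex I genes. The exact permutation p was 0.333 for each gene without overlap and 1.00 for mt-Co1, unadjusted over the 6 genes tested. Adjustment over 6 such tests could not bring any of them under a threshold.

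**Figure D1:**
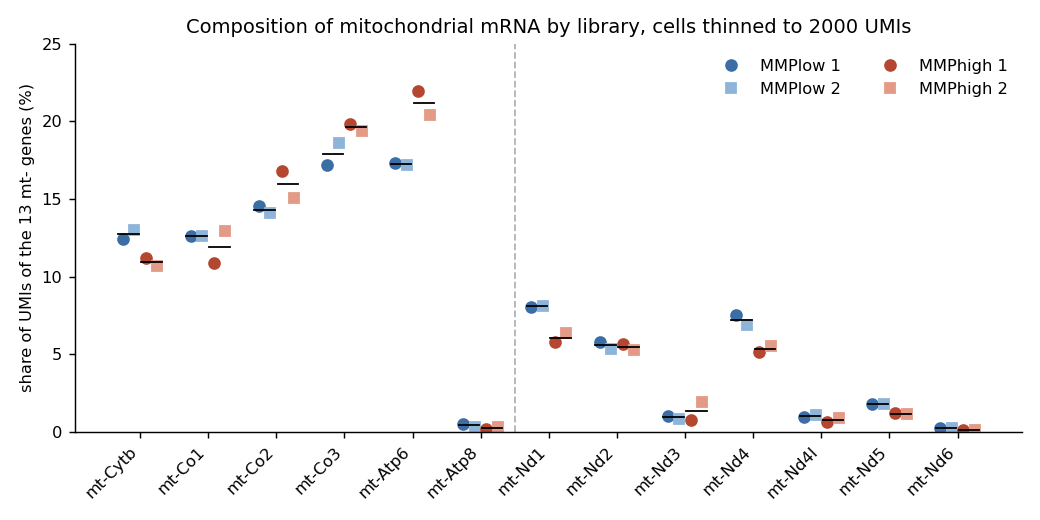
Each point is 1 library's share (%) of the UMIs of the 13 mitochondrial protein genes held by the gene on the horizontal axis, with cells thinned to 2000 UMIs. Short lines are the means of the 2 libraries of a gate and the dashed line separates the 6 genes described from complex I. mt-Atp6 rises from 17.3% and 17.2% to 21.9% and 20.4%, while mt-Nd1 and mt-Nd4 lie lower in MMPhigh.

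Expressed per length, as the percentage of mitochondrial UMIs per kilobase of gene, mt-Atp6 was the highest of the 6 in every library. It stood at 25.4 and 25.3 in MMPlow against 32.2 and 29.96 in MMPhigh. mt-Co3 followed with 22.0 and 23.7 in MMPlow against 25.3 and 24.7 in MMPhigh, and mt-Co2 with 21.3 and 20.6 and then 24.6 and 22.1. mt-Cytb stood at 10.9 and 11.4 in MMPlow against 9.78 and 9.35 in MMPhigh, and mt-Co1 at 8.16 and 8.15 in MMPlow against 7.03 and 8.39 in MMPhigh. mt-Atp8 was far below the gene whose RNA it shares, at 2.49 and 1.58 in MMPlow against 0.944 and 1.504 in MMPhigh. The number of mt-Atp6 UMIs for each mt-Atp8 UMI was 34.1 and 53.3 in MMPlow against 114 and 66.5 in MMPhigh. For 3′ libraries a value per kilobase is a rough scale, since reads gather at 1 end of an RNA whatever its length.

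The shift in composition was seen at every depth of cell that both gates held in number. In cells of 2000 to 4000 UMIs before thinning, the 6 genes made up 74.7% and 76.0% of mitochondrial UMIs in MMPlow 1 and 2 against 81.5% and 79.95% in MMPhigh 1 and 2. In cells of 8000 to 16000 UMIs the values were 74.0% and 75.0% in MMPlow against 80.2% and 79.9% in MMPhigh. The shift was also seen at each mitochondrial content up to the filter of 25%. In cells with under 2% of UMIs from mitochondrial genes the 6 genes made up 74.5% and 75.0% in MMPlow against 79.3% and 78.5% in MMPhigh. In cells with 10% to 25% they made up 73.8% and 75.7% in MMPlow against 80.8% and 78.8% in MMPhigh. Barcodes of 25% to 50%, which the filters left out, numbered 30 in MMPhigh 1 and 79 in MMPhigh 2, and the 6 genes held 79.8% and 79.1% of their mitochondrial UMIs. MMPlow 2 had 2 such barcodes, at 79.9%, so that the gates could not be compared there. Barcodes of 1000 to 2000 UMIs, also left out, were at 74.8% and 76.2% in MMPlow against 81.0% and 78.6% in MMPhigh, values close to those of the retained cells of the same library. Such barcodes may hold RNA from outside cells, and the part of free RNA in the composition was not tested.

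The share of all UMIs of the cell that these RNAs took behaved differently from their composition. In all retained cells the 6 genes took 3.31% and 3.59% of all UMIs in MMPlow 1 and 2 against 3.43% and 3.70% in MMPhigh 1 and 2. The gates overlapped, and the difference of 0.119 percentage points had a two-sided exact permutation p of 0.667. The direction turned with the cells used. In cells under 10% mitochondrial UMIs the values were 3.17% and 3.36% in MMPlow against 2.88% and 3.07% in MMPhigh. With at least 5000 UMIs per cell they were 1.90% and 2.19% in MMPlow against 3.49% and 3.41% in MMPhigh. In MMPlow the share fell with the depth of the cell, from 3.84% and 4.34% at 2000 to 4000 UMIs to 1.60% and 1.74% at 8000 to 16000 UMIs. In MMPhigh 1 it was 3.29% and 3.77% in those ranges, and in MMPhigh 2 it was 7.63% and 4.56%. So the MMPhigh libraries did not share an order with MMPlow at the lowest depth and both lay above MMPlow from 4000 UMIs upward.

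**Figure D2:**
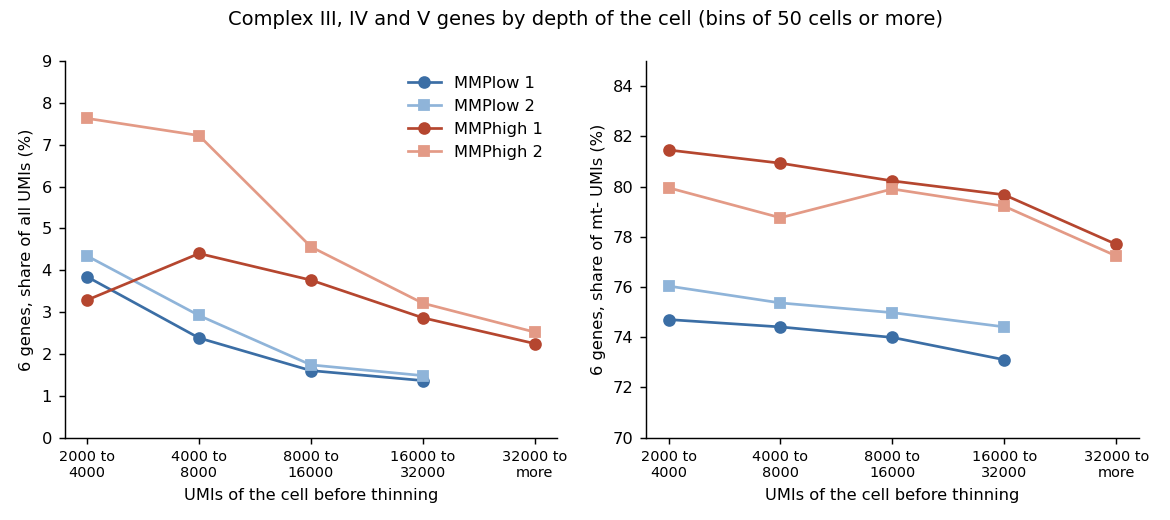
Left, the share (%) of all UMIs held by the 6 genes, and right, their share (%) of the UMIs of the 13 mitochondrial protein genes, by the UMIs of the cell before thinning. Each point is a library's sum over at least 50 cells. On the right the MMPhigh libraries stay above MMPlow in every range, and on the left the order changes between 2000 to 4000 UMIs and the deeper ranges.

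Classes of cells were named from marker lists, and a name ending in "-like" rests on those markers alone. Of 29 clusters, 19 fell into 11 named classes, and 10 clusters with 12116 cells stayed unnamed. Unnamed cells made up 63.6% of MMPhigh 1, against 23.9% and 24.0% of MMPlow 1 and 2 and 25.7% of MMPhigh 2. The erythroid-like class was 1 cluster of 176 cells led by Hba-x and Hbb-y. A cluster of 2995 cells led by Slc25a21 and Ermap, nearest to the erythroid list, was among the unnamed. In all 11 named classes the 6 genes held more of the mitochondrial UMIs in both MMPhigh libraries than in both MMPlow libraries, by 2.58 to 5.77 percentage points. The classes ranged from 73.6% to 79.6% in MMPlow and from 77.4% to 82.3% in MMPhigh. In 7 of these classes every library had at least 20 cells: erythroid-like, germ cell-like, macrophage-like, megakaryocyte-like, mesenchymal-like, muscle progenitor-like and neural or neural crest-like. In the other 4 classes at least 1 MMPhigh library held fewer than 20 cells, down to 4. Neural or neural crest-like cells, the best filled class of MMPhigh with 601 and 1077 cells, were at 74.7% and 75.3% in MMPlow against 80.1% and 79.2% in MMPhigh. Endothelial-like cells were at 74.5% and 75.5% in MMPlow and at 81.2% and 80.3% in MMPhigh, there over only 16 and 13 cells.

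mt-Atp6 and mt-Co2 were higher without overlap in all 11 named classes, by 2.09 to 5.26 and by 0.956 to 2.56 percentage points of mitochondrial UMIs. mt-Co3 was higher without overlap in 9 of 11. mt-Cytb was lower without overlap in 9 of 11, and mt-Atp8 in 7 of 11. mt-Co1 was lower in 6 and overlapped in 5. Of the complex I genes, mt-Nd1 and mt-Nd4 were lower without overlap in 11 of 11, mt-Nd6 in 10, mt-Nd5 in 9 and mt-Nd4l in 7. mt-Nd2 was higher in 2 and lower in 1, and mt-Nd3 was higher in 2. So the counts of mt-Cytb and mt-Atp8 lie among those of complex I genes. All classes come from the same 4 libraries, so these counts are not independent of each other. The cells without a class gave 74.0% and 75.4% in MMPlow against 81.0% and 77.5% in MMPhigh for the 6 genes together. An unnamed cluster led by Crabp1 and Hbb-bs, with 2074 of its 2366 cells in MMPhigh 1, was at 75.7% and 76.3% in MMPlow against 81.6% and 78.8% in MMPhigh.

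The ratio of mt-Atp6 to mt-Cytb was higher in both MMPhigh libraries in all 11 named classes, by different amounts. In mesenchymal-like cells there were 1.21 and 1.14 mt-Atp6 UMIs for each mt-Cytb UMI in MMPlow against 1.77 and 1.76 in MMPhigh. In megakaryocyte-like cells there were 1.54 and 1.58 in MMPlow against 2.24 and 2.31 in MMPhigh. In germ cell-like cells there were 1.20 and 1.14 in MMPlow against 1.82 in both MMPhigh libraries. The 2 libraries of each gate were close to each other and far from the other gate in these 3 classes. Erythroid-like cells, at 1.64 and 1.38 in MMPlow and 2.04 and 1.86 in MMPhigh, differed less. Haematopoietic progenitor-like cells differed least, at 1.63 and 1.54 in MMPlow and 1.77 and 1.90 in MMPhigh, there over only 4 and 25 cells. The cluster of this class was led by Ifitm1 and Cpa3, the latter a marker on the granulocyte or mast list.

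Within a gate, cell classes differed in composition too. Over the named classes of MMPlow, mt-Co3 spanned 15.8% to 22.3% of mitochondrial UMIs, mt-Co1 11.1% to 16.3%, mt-Atp6 14.2% to 19.0% and mt-Cytb 10.1% to 14.6%. In MMPlow, mt-Co1 was 16.3% and 15.8% of mitochondrial UMIs in erythroid-like cells, 14.9% and 15.6% in granulocyte or mast-like cells, 14.1% and 14.2% in megakaryocyte-like cells, 14.1% in both libraries of haematopoietic progenitor-like cells, and 13.6% and 13.8% in macrophage-like cells. It was 12.7% and 13.04% in germ cell-like cells. It was lower in the other classes, at 11.6% and 12.1% in epithelial or mesonephric-like, 11.8% and 11.7% in endothelial-like, 11.51% and 11.4% in neural or neural crest-like, 11.4% and 11.1% in mesenchymal-like and 11.1% and 11.3% in muscle progenitor-like cells. Of 10 pairs of neighbours in this order, 2 overlapped between libraries. The 5 blood classes lay above the 5 endothelial, epithelial, neural, mesenchymal and muscle classes in MMPlow. Clusters did not all follow this split: cluster 9, left unnamed, is led by the arterial genes Gja4 and Gja5 with endothelial markers nearest, and its mt-Co1 was at 13.7% in both MMPlow libraries, the level of macrophage-like cells.

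mt-Cytb had nearly the opposite order. In MMPlow it was 13.7% and 14.5% of mitochondrial UMIs in neural or neural crest-like cells, 13.5% and 14.2% in mesenchymal-like, and 13.5% and 13.8% in muscle progenitor-like cells. It was 11.3% and 11.8% in macrophage-like, 11.2% and 11.1% in granulocyte or mast-like, and 10.1% and 11.1% in erythroid-like cells. Of 10 pairs of neighbours, 8 overlapped, so neighbouring ranks carry little. The mt-Co1 to mt-Cytb ratio was 1.60 and 1.43 in erythroid-like and 1.20 and 1.17 in macrophage-like cells of MMPlow, against 0.839 and 0.792 in neural or neural crest-like cells.

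In MMPhigh the order of classes for mt-Co1 was not resolved, with 9 of 10 neighbours overlapping, and the 2 libraries differed. Erythroid-like cells were at 10.9% in MMPhigh 1 and 14.9% in MMPhigh 2, and germ cell-like cells at 10.5% and 15.6%. Macrophage-like cells, at 13.8% and 16.02%, stayed above mesenchymal-like cells, at 10.2% and 10.1%, in both. Median depth in erythroid-like cells was 5839 UMIs in MMPhigh 1 and 56616.5 in MMPhigh 2, and in germ cell-like cells it was 3791 and 48836.5. Its part in the gap between the libraries was not tested.

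**Figure D3:**
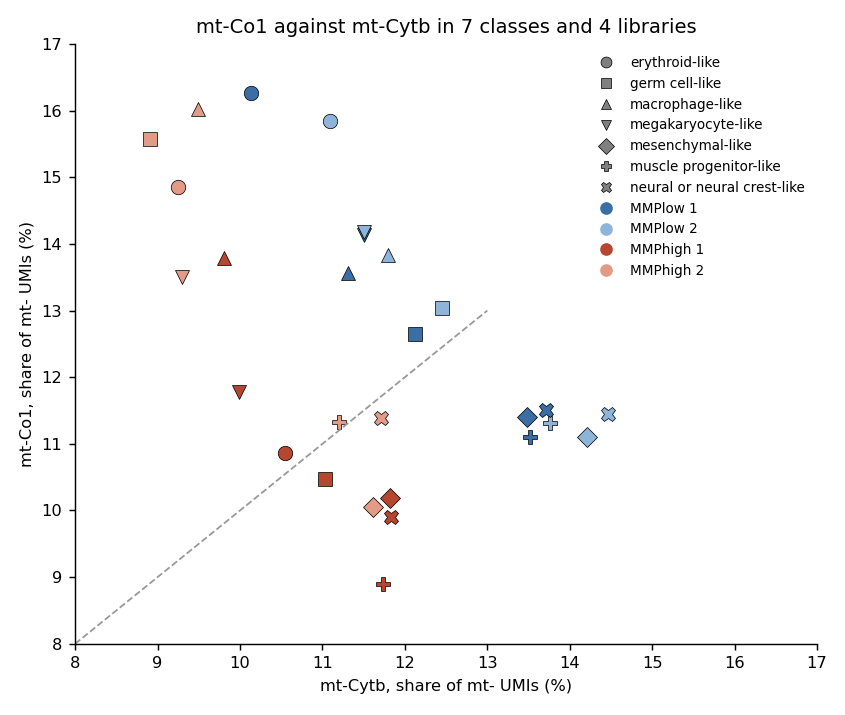
Share (%) of mitochondrial UMIs held by mt-Co1 against that of mt-Cytb, for the 7 classes with 20 or more cells per library (shapes) in the 4 libraries (colours), with cells thinned to 2000 UMIs. The dashed line marks equal shares. In MMPlow, blood and germ cell-like classes lie above the line and neural, mesenchymal and muscle progenitor-like classes below it, and the MMPhigh points lie further left, at lower mt-Cytb, except in erythroid-like cells.

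mt-Co3 was highest in germ cell-like cells, at 20.99% and 22.3% of mitochondrial UMIs in MMPlow against 22.3% and 23.5% in MMPhigh. The next class in MMPlow, macrophage-like cells, was at 18.4% and 19.9%, without overlap. mt-Atp6 was lowest in the same germ cell-like cells of MMPlow, at 14.6% and 14.2%, below muscle progenitor-like cells at 16.4% and 15.3%. Among the 5 abundant genes mt-Co2 varied least between classes, from 13.8% to 15.6% in MMPlow over all named classes.

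The total share of the cell also depended on class. In MMPlow the 6 genes took 5.79% and 7.42% of the UMIs of germ cell-like cells, 5.20% and 5.51% in haematopoietic progenitor-like cells, 4.71% and 5.20% in macrophage-like cells and 4.58% and 4.36% in megakaryocyte-like cells. Granulocyte or mast-like cells had 4.53% and 5.02%, endothelial-like cells 2.89% and 3.48%, and epithelial or mesonephric-like cells 2.55% and 3.28%. Lower shares were found elsewhere: 2.55% and 2.80% in mesenchymal-like, 2.34% and 2.28% in muscle progenitor-like, 2.02% and 2.20% in neural or neural crest-like and 1.30% and 1.48% in erythroid-like cells. Of 10 pairs of neighbours in this order, 4 overlapped between libraries. In MMPhigh 9 of 10 overlapped.

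Between the gates, the share of the cell was higher in MMPhigh without overlap in 8 of the 11 named classes, lower in 1 and overlapping in 2. In muscle progenitor-like cells it was 3.62% and 3.80% in MMPhigh, and in neural or neural crest-like cells 3.12% and 3.22%. In erythroid-like cells it was 1.80% and 3.47%. Germ cell-like cells went the other way, with 3.53% and 3.77% in MMPhigh against the 5.79% and 7.42% of MMPlow, where each library held 30 such cells. Macrophage-like cells overlapped, with 5.09% and 4.26% in MMPhigh. Most macrophage-like cells of MMPlow belonged to a cluster led by Gm2245 and Gm20528, followed by F13a1 and Mrc1, with 1140 and 1241 of its cells there, and most of those of MMPhigh to a cluster led by C1qc and C1qa with 378 and 769 cells.

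**Figure D4:**
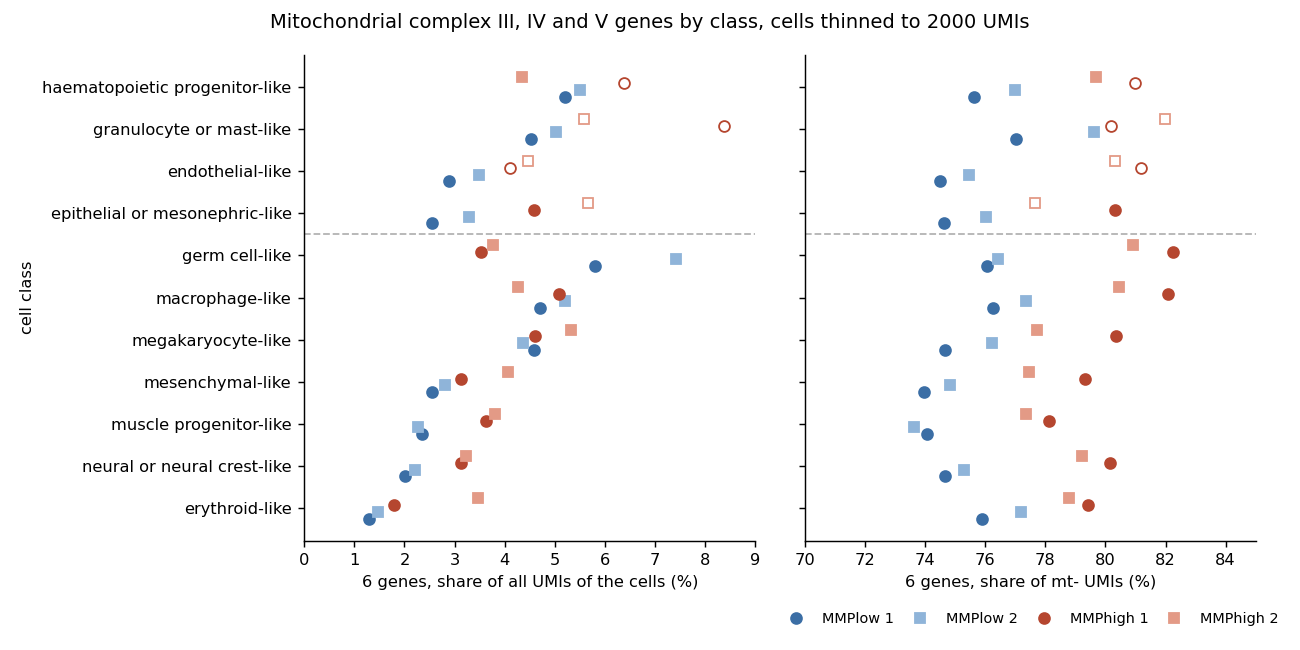
The 6 genes as a share (%) of all UMIs (left, axis from 0) and of the UMIs of the 13 mitochondrial protein genes (right, axis from 70%), by class and library, with cells thinned to 2000 UMIs. Classes under the dashed line hold 20 or more cells per library, and open points rest on fewer than 20 cells. On the right MMPhigh lies above MMPlow in every class, and on the left germ cell-like cells are lower in MMPhigh, at 3.53% and 3.77%.

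Gene by gene, UMIs summed over all retained cells were tested with edgeR's quasi-likelihood F-test, with Benjamini-Hochberg adjustment over 20517 genes. None of the 6 genes passed an adjusted p of 0.05, and the lowest unadjusted edgeR p was 0.0315, of mt-Atp8. Over all genes tested 11016 passed, which is 53.7%, so this comparison called most genes. mt-Atp8 stood at 190 and 128 CPM in MMPlow against 75.9 and 108 CPM in MMPhigh, a log2 fold of MMPhigh over MMPlow of -0.75 (SE 0.25, edgeR adjusted p 0.0571). mt-Cytb stood at 4805 and 5141 CPM in MMPlow against 4041 and 3802 CPM in MMPhigh, a log2 fold of -0.31 ± 0.14 (SE, adjusted p 0.102 by edgeR). DESeq2 called 1 of the 6, mt-Cytb, with a log2 fold of -0.32 and an adjusted p of 0.00488. mt-Atp6 stood at 6584 and 6777 CPM in MMPlow against 7769 and 7186 CPM in MMPhigh, without overlap, as for 78.2% of all genes, with a log2 fold of 0.20 ± 0.15 (SE, adjusted p 0.290 by edgeR). For mt-Co1, mt-Co2 and mt-Co3 the gates overlapped in CPM, and the log2 folds were -0.03, 0.07 and 0.06. Of the 7 complex I genes, 5 were lower by edgeR, from mt-Nd1 at -0.39 to mt-Nd6 at -1.22, beside an all-gene rate of 26.5% lower. With the replicate block 3 were lower, mt-Nd1 and mt-Nd4 being lost (edgeR adjusted p 0.110 and 0.0832). With classes weighted equally 2 were lower, mt-Nd1, mt-Nd4 and mt-Nd5 being lost (edgeR adjusted p 0.276, 0.138 and 0.0535), and in cells thinned to 2000 UMIs mt-Nd6 alone. At a minimum of 1000 UMIs mt-Nd1, mt-Nd4 and mt-Nd4l were lost (edgeR adjusted p 0.293, 0.228 and 0.0854). At a minimum of 5000 UMIs mt-Nd4l and mt-Nd5 were lost, at log2 folds of -0.20 and -0.18 (edgeR adjusted p 0.442 and 0.163). There mt-Nd1 and mt-Nd4 turned, to 0.083 and 0.074, so that mt-Nd6 alone was still called lower.

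Without MMPlow 2 the test called mt-Atp8 lower (edgeR adjusted p 0.0126), and without MMPlow 1 its log2 fold was -0.46. The log2 fold of mt-Atp6 was 0.13 without MMPhigh 1. For mt-Co1, mt-Co2 and mt-Co3 the direction itself turned when a library was left out, with log2 folds between -0.11 and 0.15. Without MMPlow 1 mt-Nd1 and mt-Nd4 were not called (edgeR adjusted p 0.154 and 0.183), nor without MMPlow 2 (edgeR adjusted p 0.248 and 0.142, with 0.124 for mt-Nd4l).

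These folds rest on which cells are summed. With at least 5000 UMIs per cell, mt-Atp6, mt-Co1, mt-Co2 and mt-Co3 were higher in MMPhigh, with log2 folds of 0.70, 0.45, 0.53 and 0.56 and edgeR adjusted p values of 0.00101, 0.0121, 0.00353 and 0.00485, beside 24.9% of all genes higher. In cells of 8000 to 32000 UMIs, a choice made after seeing the data, mt-Cytb was higher as well, by 0.53 (edgeR adjusted p 0.00921), and mt-Atp6 by 1.07, beside 29.9% of all genes higher. From 8000 to 16000 UMIs there were 1043 and 2006 cells in MMPlow and 437 and 521 in MMPhigh. From 16000 to 32000 UMIs there were 59 and 224 against 497 and 1275. MMPlow retained 16698 and 18583 cells and MMPhigh 4403 and 3418. So this range took the deepest cells of MMPlow, while it held the median depth of MMPhigh 2, 23668.5 UMIs.

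Within classes the same test called members higher in neural, muscle, mesenchymal and erythroid-like cells, between 1 and 4 of 6, and 2 of 6 lower in germ cell-like cells. In neural or neural crest-like cells 4 of 6 genes rose, where 13.9% of all genes were higher. A cluster led by Dcc and Cacna2d3 held 380 and 394 of these cells in MMPlow and 528 and 983 in MMPhigh. One led by Cdh6 and Fabp7, with Sox10 among its top genes, held 152 and 171 against 73 and 94. The part of this mix in the values was not tested. mt-Atp6 was at 4373 and 4518 CPM in MMPlow against 6686 and 6613 CPM in MMPhigh, a log2 fold of 0.64 ± 0.10 (SE, adjusted p 0.00171 by edgeR). mt-Co3 rose by 0.50, from 4183 and 4518 CPM to 5913 and 5915 CPM (edgeR adjusted p 0.00651). mt-Co2 rose by 0.44 and mt-Co1 by 0.34, while mt-Cytb, at 3421 and 3630 CPM in MMPlow against 3673 and 3631 CPM in MMPhigh, had a log2 fold of 0.11 and mt-Atp8 one of -0.31, neither of them called. For mt-Atp6, mt-Co2 and mt-Co3 the gates were well apart. mt-Atp6 passed under all 17 alternatives, while mt-Co1 lost its call under 8, among them leaving out MMPlow 1, MMPlow 2 or MMPhigh 2, with log2 folds of 0.33, 0.39 and 0.23. mt-Co3 lost its call without MMPlow 1, at a log2 fold of 0.45 (edgeR adjusted p 0.0529). With classes named at Leiden resolutions of 0.5 and 2, mt-Atp6 alone was called, with mt-Co2 at edgeR adjusted p values of 0.0794 and 0.104 and mt-Co3 at 0.0682 and 0.0830.

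In muscle progenitor-like cells 1 of 6 genes rose, where 0.3% of all genes were higher. The cluster of this class was led by Ttn and Actc1, followed by Mylpf and Myl1. At a Leiden resolution of 2 a cluster of this name led by Itm2a held 153 and 159 cells in MMPlow and 24 and 99 in MMPhigh. Another, led by Mylpf and Actc1, held 24 and 26 against 35 and 36. The part of this mix in the mt-Atp6 value was not tested. mt-Atp6 went from 4352 and 4284 CPM in MMPlow to 8917 and 7571 CPM in MMPhigh, a log2 fold of 1.01 ± 0.19 (SE, adjusted p 0.0123 by edgeR). mt-Co3 and mt-Co2 had log2 folds of 0.79 and 0.76 with edgeR adjusted p values of 0.0526 and 0.0645, and DESeq2 called 3 of 6. Leaving out MMPlow 1 or MMPlow 2 ended the mt-Atp6 call, at log2 folds of 1.01 and 1.01 (edgeR adjusted p 0.547 and 0.467), and so did a fit with the replicate number as a block, with an edgeR adjusted p of 0.0924.

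In mesenchymal-like cells mt-Atp6 alone rose, from 5058 and 5247 CPM to 6722 and 7671 CPM, a log2 fold of 0.54 ± 0.15 (SE, adjusted p 0.0328 by edgeR), where 6.47% of all genes were higher. mt-Cytb and mt-Atp8 had log2 folds of -0.047 and -0.26 there and were not called. The class drew on different clusters by gate: a cluster led by Col2a1 and Col9a1 held 911 and 760 of its cells in MMPlow and 95 and 116 in MMPhigh, one led by Tmem132c and Prrx1 436 and 454 against 114 and 166, and one led by Acta2 and Tagln 270 and 263 against 13 and 15. The part of this mix in the mt-Atp6 value was not tested. The mt-Atp6 call was lost without MMPlow 1, MMPlow 2 or MMPhigh 2, with log2 folds from 0.46 to 0.64 when each library was left out. It was also lost in cells thinned to 2000 UMIs, at a Leiden resolution of 2 and with mitochondrial content under 10% (edgeR adjusted p 0.0839, 0.0561 and 0.0504). In erythroid-like cells mt-Atp6 rose by 0.78 (SE 0.18, edgeR adjusted p 0.00435), from 2815 and 2947 CPM to 5042 and 6468 CPM, and mt-Co2 by 0.61 (SE 0.18, edgeR adjusted p 0.0314), from 2514 and 2975 CPM to 4255 and 5474 CPM, where 1.91% of all genes were higher. Both calls were lost without MMPlow 1 or MMPlow 2 and in cells thinned to 2000 UMIs, where the log2 folds were 0.87 and 0.64. Named at a Leiden resolution of 0.5, the class held a cluster of 3116 cells led by Slc25a21 and Ermap and one of 86 cells led by Hba-x and Hbb-y. With those cells the log2 folds were 0.068 for mt-Atp6 and 0.0012 for mt-Co2, and neither was called (edgeR adjusted p 0.855 and 0.998). The mt-Co2 call was lost with the replicate block (edgeR adjusted p 0.0919).

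In germ cell-like cells mt-Cytb and mt-Atp8 fell, where 2.98% of all genes were lower. mt-Cytb went from 8472 and 10589 CPM in MMPlow to 4745 and 3667 CPM in MMPhigh, a log2 fold of -1.03 ± 0.22 (SE, adjusted p 0.00429 by edgeR). mt-Atp8 went from 301 and 188 CPM to 87.8 and 97.7 CPM, a log2 fold of -1.22 ± 0.27 (SE, adjusted p 0.00517 by edgeR), over 33 and 25 UMIs in MMPlow. The other 4 genes had log2 folds from -0.51 to -0.38 that did not pass. Leaving out MMPlow 1 ended both calls (log2 folds of -1.10 for mt-Cytb and -0.79 for mt-Atp8), and leaving out MMPlow 2 ended that of mt-Cytb, at -0.77 (edgeR adjusted p 0.236). In cells thinned to 2000 UMIs mt-Atp8 was not called (edgeR adjusted p 0.0714). In the sums without thinning, mt-Nd1, mt-Nd4, mt-Nd4l, mt-Nd5 and mt-Nd6 of complex I were called lower as well. Their log2 folds ran from -1.01 for mt-Nd4 to -1.98 for mt-Nd6. mt-Nd2 and mt-Nd3, at -0.58 and 0.13, were not called.

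Macrophage-like and megakaryocyte-like cells gave 0 calls among the 6 genes by edgeR, beside 44.0% and 9.41% of all genes. The lowest unadjusted edgeR p values were 0.0550 and 0.0224, both of mt-Atp8. DESeq2 called 1 and 0 of the 6. Over all fits of these classes, 19.1% to 51.2% and 1.56% to 18.5% of all genes were called. In macrophage-like cells mt-Atp6 was at 10309 and 10446 CPM in MMPlow against 9685 and 9050 CPM in MMPhigh, while its edgeR log2 fold after TMM scaling was 0.14, so the sign depends on the scaling. mt-Cytb was at 6564 and 6971 CPM in MMPlow against 4673 and 4467 CPM in MMPhigh, with a log2 fold of -0.28 ± 0.14 (SE, adjusted p 0.114 by edgeR). In megakaryocyte-like cells mt-Atp8 was at 328 and 187 CPM in MMPlow against 149 and 156 CPM in MMPhigh, with a log2 fold of -0.60 ± 0.22 (SE, adjusted p 0.122 by edgeR).

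**Figure D5:**
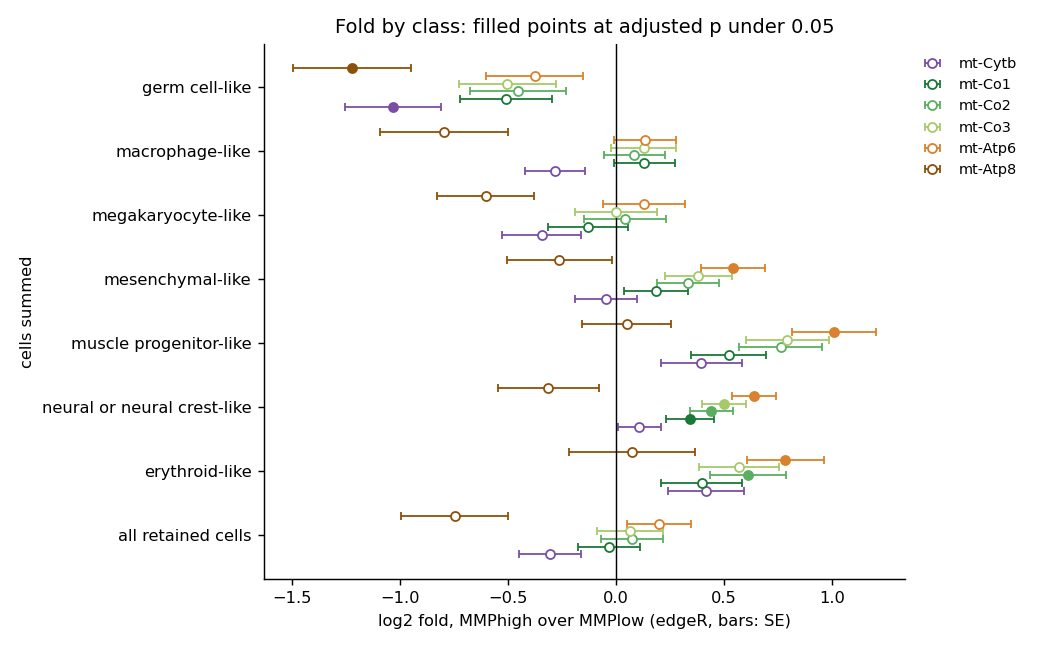
Log2 fold of MMPhigh over MMPlow for each of the 6 genes, in sums of all retained cells and of 7 classes, with bars of 1 SE from edgeR. Filled points passed an adjusted p of 0.05. mt-Atp6 has the highest log2 fold of the 6 in each set of cells, and mt-Atp8 the lowest.

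Classes were then compared with each other over both gates, each class against the mean of the other 6, with the library as a block. In macrophage-like cells all 6 genes were higher, beside 32.8% of all genes, from mt-Cytb with a log2 fold of 0.57 to mt-Co1 with 0.93 (SE 0.11, edgeR adjusted p 7.55e-08). The mt-Cytb call was lost at a Leiden resolution of 0.5, at 0.27 (edgeR adjusted p 0.0838). The complex I genes were all called higher in macrophage-like cells too, from mt-Nd6 at 0.49 to mt-Nd5 at 0.72. In megakaryocyte-like cells 5 of 6 were higher, beside 24.0% of all genes, and mt-Atp8 led with 0.99 (SE 0.12, edgeR adjusted p 2.66e-07). The calls of mt-Co2 and mt-Co3 there, at 0.45 and 0.35, were lost without MMPlow 1 (0.32 and 0.20) or MMPlow 2 (0.41 and 0.30), that of mt-Co3 also without MMPhigh 1 (0.39), and that of mt-Atp6, at 0.58, without MMPlow 1 (0.44). The mt-Co3 call was lost as well with mitochondrial content under 10%, at Leiden resolutions of 0.5 and 2, with a minimum of 10 CPM and with no low-count filter (edgeR adjusted p from 0.0593 to 0.0758). DESeq2 called 3 of 6 in these cells. In germ cell-like cells mt-Co3, mt-Co1, mt-Co2 and mt-Cytb were higher, by 0.83, 0.66, 0.57 and 0.47, beside 21.7% of all genes, and mt-Atp6 was at 0.27 without passing. mt-Cytb lost this call without MMPlow 1 or MMPlow 2, at log2 folds of 0.42 and 0.31, in thinned cells and with no low-count filter (edgeR adjusted p 0.116 and 0.0594), and DESeq2 called 4 of 6. Complex I genes were called higher in germ cell-like cells as well, from mt-Nd2 at 0.38 to mt-Nd5 at 0.58, except mt-Nd3 and mt-Nd6. Each log2 fold joins both gates, which differed in these cells. Germ cell-like mt-Cytb was at 8472 and 10589 CPM in MMPlow, against 6564 and 6971 CPM in macrophage-like cells. In MMPhigh it was at 4745 and 3667 CPM, against 4673 and 4467 CPM. Germ cell-like mt-Co3 was at 14271 and 18438 CPM in MMPlow, against 10597 and 11740 CPM. In MMPhigh mt-Co3 was at 11415 and 9395 CPM, against 10453 and 9602 CPM.

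Lower levels were found in the neural, mesenchymal, muscle and erythroid-like classes. In neural or neural crest-like cells all 6 genes were lower, beside 28.4% of all genes, from mt-Cytb at -0.41 to mt-Co1 and mt-Atp8, both at -0.72. The mt-Cytb call was lost without MMPlow 2 or MMPhigh 1, at -0.45 and -0.44, with mitochondrial content under 10%, in thinned cells and with no low-count filter (edgeR adjusted p 0.106, 0.276 and 0.102), and with DESeq2 (adjusted p 0.122). The mt-Atp6 call was lost in thinned cells (edgeR adjusted p 0.172). In mesenchymal-like cells mt-Co1, mt-Atp8 and mt-Co2 were lower, by -0.57, -0.40 and -0.39, beside 21.1% of all genes, and in muscle progenitor-like cells mt-Co1 alone, by -0.45, beside 13.4%. Of the mesenchymal-like calls, mt-Co2 was lost without MMPlow 1, MMPlow 2 or MMPhigh 1 (-0.38, -0.37 and -0.37) and mt-Atp8 without MMPlow 2 or MMPhigh 1 (-0.38 and -0.41). Both were lost in thinned cells (edgeR adjusted p 0.231 and 0.284), and mt-Co2 with mitochondrial content under 10% and at a Leiden resolution of 2 (edgeR adjusted p 0.113 and 0.0783). In erythroid-like cells all 6 were lower, by -0.47 to -0.74, beside 36.3% of all genes and an all-gene median of -0.48, so that these log2 folds lie near those of other genes. Complex I genes were called lower there as well, from mt-Nd4l at -0.44 to mt-Nd4 at -0.59, except mt-Nd3. There mt-Co1, mt-Co2, mt-Atp6 and mt-Atp8 were not called without MMPlow 1 (-0.31, -0.30, -0.42 and -0.35) or without MMPlow 2 (-0.33, -0.35, -0.41 and -0.41). mt-Co1 and mt-Co2 were lost with mitochondrial content under 10% (edgeR adjusted p 0.0617 and 0.0782), and with mt-Atp8 at a minimum of 5000 UMIs (log2 folds of -0.099, -0.10 and -0.23). At a Leiden resolution of 2 mt-Atp8 was at -0.075 and not called. In erythroid-like cells named at a Leiden resolution of 0.5, 4 of the 6 turned to positive log2 folds, and the gene called was mt-Atp8, higher by 0.65 (edgeR adjusted p 9.12e-06). That class, with clusters of 3116 and 86 cells, holds mostly other cells than the cluster of 176 cells named at a resolution of 1. mt-Co1 was called in all 7 contrasts, higher in 3 and lower in 4. The sorts and filters that set which cells of a class were seen are shared by all classes.

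The nuclear genes that work with these 6 were followed from lists of subunits, assembly factors and factors of mitochondrial transcription and RNA stability. In sums of all cells 4 of 9 complex III, 5 of 16 complex IV and 2 of 18 complex V subunits rose, and none fell by edgeR. The median log2 folds were 0.09, 0.12 and 0.14, beside 0.01 for all genes, and 27.2% of all genes were higher. In cells thinned to 2000 UMIs the medians were 0.27, 0.38 and 0.36 with 2, 1 and 1 called higher. The 27.2% and the 0.01 are of the sums without thinning, so these medians are not set against all genes. Over all fits of sums of all cells, 3.56% to 59.0% of all genes were called. With classes weighted equally 1 of 9, 0 of 14 and 0 of 18 were higher, in a fit that called 0.909% of all genes higher and 2.65% lower. Uqcrfs1, the Rieske iron-sulfur protein of complex III, was at 108 and 133 CPM in MMPlow against 151 and 150 CPM in MMPhigh, a log2 fold of 0.36 ± 0.12 (SE, adjusted p 0.0314 by edgeR). Atp5c1, the central stalk subunit of the ATP synthase, was at 289 and 315 CPM in MMPlow against 405 and 396 CPM in MMPhigh, a log2 fold of 0.44 ± 0.11 (SE, adjusted p 0.00796 by edgeR). Cox7a1, a complex IV subunit typical of muscle, was the largest change of its list at 0.74 but was rare, at 2.24 and 1.90 CPM in MMPlow against 2.43 and 4.17 CPM in MMPhigh. It lost its call without MMPhigh 2, MMPlow 2 or MMPlow 1, at log2 folds of 0.29, 0.63 and 0.83, and under 6 other alternatives: DESeq2, library totals alone, minima of 1000 and 5000 UMIs, cells of 8000 to 32000 UMIs and thinned cells (adjusted p from 0.0516 to 0.175). Without MMPlow 1, Uqcrfs1 and Atp5c1 had log2 folds of 0.19 and 0.35 and were not called, nor was Uqcrfs1 without MMPhigh 1, at 0.34. With classes weighted equally Uqcrfs1 and Atp5c1 were not called either (edgeR adjusted p 0.216 and 0.0511). Minima of 1000 and 5000 UMIs ended both calls as well, with edgeR adjusted p values up to 0.906 for Uqcrfs1 and 0.245 for Atp5c1.

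Of 29 assembly factors tested, 4 rose and 2 fell, beside 27.2% higher and 26.5% lower among all genes. With classes weighted equally 0 were higher and 1 lower. Taco1, which activates the translation of mt-Co1, was at 134 and 89.2 CPM in MMPlow against 27.5 and 28.7 CPM in MMPhigh, a log2 fold of -1.95 ± 0.19 (SE, adjusted p 0.000435 by edgeR). Taco1 was not called without MMPhigh 2, while its log2 fold ran from -2.21 to -1.66 when each library was left out. Cox19, an assembly factor of complex IV, was at 42.9 and 44.2 CPM in MMPlow against 73.1 and 61.9 CPM in MMPhigh, a log2 fold of 0.67 ± 0.11 (SE, adjusted p 0.000931 by edgeR). Of 37 factors of mitochondrial transcription and RNA stability, 9 rose and 5 fell, again beside 27.2% and 26.5% of all genes, and 0 of 35 passed with classes weighted equally. Tefm, the mitochondrial transcription elongation factor, had a log2 fold of 0.51 ± 0.13 (SE, adjusted p 0.0123 by edgeR), and Polg, the mitochondrial DNA polymerase, one of -0.63 (SE 0.10, edgeR adjusted p 0.00114). Without MMPlow 1 Tefm was at 0.35 and not called. With classes weighted equally, Cox19, Tefm and Polg had log2 folds of 0.04, -0.03 and -0.24, none of them called. In cells of 8000 to 32000 UMIs the nuclear lists went opposite to the mitochondrial genes: 9 of 9, 10 of 16 and 9 of 18 subunits of complexes III, IV and V were lower in MMPhigh and 0 were higher by edgeR, with median log2 folds of -0.57, -0.50 and -0.45. Among all genes of these sums 29.0% were lower, and the median log2 fold was 0.0099.

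Across 38 sums of class and library, the genes outside the mitochondrial set whose level was most like that of the 6 genes together were 8030462N17Rik, Mark2, Cyb5b, Snd1 and Pds5a, with Pearson r of 0.837, 0.818, 0.803, 0.792 and 0.790 among 4152 genes ranked on log2(CPM + 10). Cyb5b encodes a cytochrome b5 of the outer mitochondrial membrane. Within mitochondrial mRNA, mt-Co2 and mt-Co3 were nearest to each other at 0.981, mt-Co2 was nearest to mt-Atp6 at 0.964 and to mt-Co1 at 0.940, mt-Nd4 was nearest to mt-Cytb at 0.965, and mt-Nd4l to mt-Atp8 at 0.866. The sums share 4 libraries and their depths, so these are descriptions.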

How the data were processed

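Single-cell RNA-seq matrices of 4 droplet libraries were used, with whole-number UMI counts per gene and barcode that the authors deposited without normalization. Cell Ranger 7.0.1 is named per the file headers and Cell Ranger 2.1.1 with mm10 per the submitters' processing notes, and the annotation is not given in the sources used here. Retained barcodes had 2000 UMIs or more, 1000 genes or more and under 25% of UMIs from the 13 mitochondrial protein genes. Scrublet doublet calls were removed, 2, 996, 0 and 68 in MMPlow 1, MMPlow 2, MMPhigh 1 and MMPhigh 2, and in MMPlow 1 and MMPhigh 1 the caller is taken not to have worked. For shares, each retained cell was thinned to 2000 UMIs. Cells were clustered with scanpy 1.11.5 (2000 variable genes, 30 components, 15 neighbours, Leiden resolution 1), and clusters were named from 12 marker lists, with the naming thresholds set after the clusters were seen.

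UMIs were summed per library, or per library and class, and tested in R 4.3.3 with edgeR 4.0.16 (TMM, filterByExpr, robust quasi-likelihood F-test, two-sided, Benjamini-Hochberg over all genes, threshold 0.05). The SE of a log2 fold is its size divided by the square root of F. Shares were compared with exact permutation tests (scipy 1.17.1). DESeq2 1.42.0 was an alternative, as were other filters, thresholds, scalings, cluster resolutions, a replicate block and leaving out each library. Removing the top 6% of doublet scores, testing thinned sums and testing cells of 8000 to 32000 UMIs were chosen after seeing the data. The scripts were tested on simulated data. The 6 genes and the lists were chosen with earlier results of these data known. Named genes are the 6, the complex I genes, the called nuclear gene of largest log2 fold in each direction of each list, and the 5 genes of most like pattern. Nuclear copies were searched with blastn 2.17.0 in the GENCODE transcripts on GRCm38.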

Additional observations from a re-analysis of the deposited data

Results flagged for a closer look

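In germ cell-like cells the share of the cell taken by the 6 genes was lower in both MMPhigh libraries, by -2.96 percentage points on average, while it was higher in both in 5 of the other 6 classes that had 20 or more cells per library. The same was seen for single genes, at -0.855 for mt-Co3, -0.499 for mt-Co2 and -0.433 for mt-Atp6, each with 5 of those 6 classes higher. For mt-Cytb the difference in these cells was -0.622, with 3 of them higher, and for mt-Co1 -0.527, with 2 of them higher. mt-Cytb was lower as well in macrophage-like cells, by -0.190, and in megakaryocyte-like cells, by -0.0782. For the complex I genes together, the differences over the 7 classes with 20 or more cells per library ran from -1.23 to 0.275 points. They were higher without overlap in 3 of these classes and lower in 2. These differences between classes were not tested. Without thinning the 6 genes took 5.27% and 6.40% of germ cell-like UMIs in MMPlow and 3.92% and 3.29% in MMPhigh.

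Barcodes below the UMI minimum held these genes at different levels in the 4 libraries. From 500 to 1000 UMIs the 6 genes took 5.21% of UMIs in MMPhigh 1 and 22.6% in MMPhigh 2, against 0.631% and 3.12% in MMPlow. The lowest barcode of MMPlow 1 had 962 UMIs and that of each other library 500, so MMPlow 1 covers only the top of this range. From 1000 to 2000 UMIs the 6 genes took 4.62% in MMPhigh 1, over 5019 barcodes, and 33.6% in MMPhigh 2, over 354 barcodes, against 1.39% and 5.22% in MMPlow, so that MMPhigh 1 lay between the MMPlow libraries there. The high mitochondrial barcodes of MMPhigh that had at least 2000 UMIs but exceeded 25% numbered 51 and 172.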

How the results depend on the processing

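The share of mitochondrial UMIs held by the 6 genes stayed higher in MMPhigh under every alternative run. Where gates do not overlap, leaving out 1 library can change the size of a difference but not its direction. The difference was 3.64 to 5.66 percentage points when each library was left out, 0.767 to 2.49 for mt-Co2, 1.02 to 2.42 for mt-Co3 and -0.257 to -0.0727 for mt-Atp8. The share of the cell held by the 6 genes turned, at -0.291 with mitochondrial content under 10%, -0.0280 without thinning and -0.414 as a median over cells, and ranged from -0.0182 to 0.257 without each library. The share of mt-Co1 turned to 0.178 points without thinning and ranged from -1.73 to 0.359 without each library, and that of mt-Atp8 turned to 0.137 as a median over cells. The cause was not tested for these or for the changes below.

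In sums of all cells, 1 of 6 genes was called with DESeq2, with no low-count filter, with a minimum of 1000 UMIs, with library totals alone and in thinned cells, 4 with a minimum of 5000 UMIs and 5 in cells of 8000 to 32000 UMIs, where 24.9% and 29.9% of all genes were higher. Over all fits of these sums the share of all genes called, in either direction, ran from 3.56% to 59.0%. Log2 folds that turned at 5000 and at 8000 to 32000 UMIs were 0.15 and 0.53 for mt-Cytb, 0.45 and 0.79 for mt-Co1, 0.083 and 0.30 for mt-Nd1, 0.44 and 0.75 for mt-Nd2, and 0.074 and 0.41 for mt-Nd4. In the range of 8000 to 32000 UMIs, mt-Atp8 (0.16), mt-Nd4l (0.12), mt-Nd5 (0.083), Uqcrfs1 (-0.38), Atp5c1 (-0.18) and Tefm (-0.10) also turned. With classes weighted equally, mt-Co1 (0.025), mt-Nd2 (0.091) and Tefm (-0.033) turned. With a minimum of 1000 UMIs mt-Co1 and mt-Nd2 were at 0.037 and 0.034, and in thinned cells at 0.015 and 0.058. Without each library in turn, the count was 0 to 1, and log2 folds ranged from -0.11 to 0.044 for mt-Co1, -0.0093 to 0.15 for mt-Co2, -0.038 to 0.15 for mt-Co3, -0.12 to 0.013 for mt-Nd2, -0.21 to 1.03 for mt-Nd3, 0.13 to 0.27 for mt-Atp6 and -1.01 to -0.46 for mt-Atp8.

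Within classes, the counts called of 6 moved as follows. Calls were of higher genes in erythroid-like, mesenchymal-like, muscle progenitor-like and neural or neural crest-like cells, apart from 1 lower in the last with the replicate block and without MMPhigh 2, and of lower genes in germ cell-like cells. In macrophage-like and megakaryocyte-like cells they were of lower genes, except for higher ones with a minimum of 5000 UMIs. Over the same alternatives the share of all genes called ran from 0.918% to 33.7% in erythroid-like, 1.69% to 13.6% in germ cell-like, 19.1% to 51.2% in macrophage-like, 1.56% to 18.5% in megakaryocyte-like, 4.96% to 22.4% in mesenchymal-like, 0.248% to 6.90% in muscle progenitor-like and 7.59% to 35.5% in neural or neural crest-like cells. Erythroid-like cells gave 5 with no low-count filter and with library totals alone, 0 in thinned cells, and 4 and 0 at Leiden resolutions of 2 and 0.5. Germ cell-like cells gave 1 in thinned cells and 5 with library totals alone. Macrophage-like cells gave 1 with DESeq2, no low-count filter, library totals alone and thinned cells, and 4 with a minimum of 5000 UMIs. Megakaryocyte-like cells gave 1 with no low-count filter and with 5000 UMIs, and 2 with mitochondrial content under 10%. Mesenchymal-like cells gave 3 with DESeq2 and with 5000 UMIs, and 0 with mitochondrial content under 10%, in thinned cells and at a resolution of 2. Muscle progenitor-like cells gave 3 with DESeq2, the top 6% of doublet scores removed, no low-count filter, library totals alone and thinned cells, 4 with 5000 UMIs, and 2 with no doublet removal, mitochondrial content under 50% and resolutions of 0.5 and 2. Neural or neural crest-like cells gave 1 at both resolutions. Without each library in turn, the counts ran from 0 to 5 in erythroid-like and germ cell-like, 0 to 1 in macrophage-like, megakaryocyte-like and mesenchymal-like, 0 to 4 in muscle progenitor-like, and 2 to 4 in neural or neural crest-like cells.

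Between classes, the share of all genes called ran from 15.8% to 72.3% over classes and alternatives. Erythroid-like cells gave 1 at a resolution of 0.5, higher, where mt-Co1 (0.17), mt-Co2 (0.088), mt-Atp6 (0.14) and mt-Atp8 (0.65) turned, and 3 with 5000 UMIs. Megakaryocyte-like cells gave 3 with DESeq2, mesenchymal-like cells 1 in thinned cells and 5 with 5000 UMIs, and muscle progenitor-like cells 5 at a resolution of 0.5 and 3 with no low-count filter. Without each library in turn the counts ran from 2 to 6 in erythroid-like, 3 to 5 in germ cell-like, 6 to 6 in macrophage-like, 2 to 6 in megakaryocyte-like, 1 to 4 in mesenchymal-like, 1 to 2 in muscle progenitor-like and 5 to 6 in neural or neural crest-like cells.

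Libraries of different gates share only a replicate number, and same-numbered libraries deviated together with r = 0.121 over 20517 genes. With the replicate block the counts were 0 in all cells, 1 in erythroid-like, 2 in germ cell-like, 0 in macrophage-like, 1 in megakaryocyte-like, 1 in mesenchymal-like, 0 in muscle progenitor-like and 5 in neural or neural crest-like cells. The differences in shares, 0.119 and 4.65 points, cannot change with this block, since each replicate number occurs once in each gate. With 2 libraries a gate, calls within small classes rest on few cells. Depth also differed between libraries, and its part in the shares of the cell was not tested: median depth was 23668.5 UMIs in MMPhigh 2 and 3145 to 3685 UMIs in the other libraries.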
